A study of Mus musculus with 12 samples.

Results

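The genes described here are 40 genes of the cell division cycle, named by function: proliferation markers, cyclins, cyclin-dependent kinases and their CIP/KIP inhibitors, genes of replication origin licensing, of the replication fork and of nucleotide supply, mitotic kinases and spindle genes, genes of the anaphase-promoting complex, and the transcription factors Foxm1 and E2f1. They were followed on 12 mouse expression arrays. A gene was included when a probe set carried its symbol and no other, and the brightest such probe set was kept. This gave values for 38 of the 40 genes, among 22180 genes in all. Ccnb1 was not named by the annotation used here, the only probe set of Ccne2 also carried Ints8, and both were left without a value. A filter on low signal kept 37 of the 38. Bub1, the spindle checkpoint kinase, did not pass it: its signal was 1.90 to 2.91, below the lower quartile of the table (2.98) in all 12 libraries.

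The arrays measured RNA of prostate epithelial cells from wild-type, hormone-naïve male mice whose age was not given in the sources used here. Cells negative for the lineage markers CD45, CD31 and Ter119 were sorted on Sca1 and CD49f into a Sca1-high gate, a basal gate (Sca1-intermediate, CD49f-positive) and a luminal gate (Sca1-low, CD49f-low), and the surface protein LY6D then split every gate in 2. The 6 groups held 2 libraries each: Sca1-high LY6D+ and Sca1-high LY6D- from mice 1 and 5, basal LY6D+ and basal LY6D- from mice 3 and 5, and luminal LY6D+ and luminal LY6D- from mice 4 and 5. A gate therefore rests on 4 libraries of 2 mice, which the tests treat as independent, and the SE and p of a gate comparison do not measure the spread between mice. Only mouse 5 gave libraries of more than 1 gate. The gate differences given below with the mouse as a block therefore come from mouse 5 alone. Values are log2 signals on the scale deposited by the authors, given for mouse 1, 3 or 4 first and mouse 5 second. A difference of 1 is a factor of 2, and a fitted difference is given ± its SE. In sorted bulk samples, fewer cells that express a gene and less RNA of it per cell cannot be told apart. Signals of different probe sets are not compared as amounts of transcript.

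Several libraries stood apart. The basal LY6D+, basal LY6D- and luminal LY6D- libraries of mouse 5 had the lowest array medians, 3.76 to 3.79 against 3.90 to 3.99 in the other 9. Without these 3 libraries the basal gate rests on mouse 3 alone, which gave no other gate. Gate and mouse then cannot be told apart in comparisons with basal cells. The LY6D+ library of the Sca1-high gate from mouse 5 had a Krt18 signal of 5.30, against 10.02 to 11.60 in the other 11, and its Ly6d signal was 4.70, against 7.37 in the library labelled LY6D- of the same gate and mouse. Over all groups Ly6d was 5.54 and 4.70 in LY6D+ and 4.96 and 7.37 in LY6D- Sca1-high cells, 5.93 and 5.96 in LY6D+ and 4.86 and 6.03 in LY6D- basal cells, and 4.81 and 5.20 in LY6D+ and 5.11 and 4.61 in LY6D- luminal cells, and its transcript did not separate the sorted classes. Markers of other cells also differed between gates. The mean of 8 myeloid markers was 4.59 to 5.72 in Sca1-high, 3.92 to 4.62 in basal and 6.48 to 8.08 in luminal libraries. The mean of 7 endothelial markers was 5.77 to 7.68 in Sca1-high libraries, 4.29 and 4.60 in LY6D+ and 7.07 and 6.88 in LY6D- basal libraries, and 4.09 to 4.58 in luminal libraries. The mean of 5 lymphoid markers was 3.60 to 3.99, 3.59 to 3.99 and 3.77 to 4.77 in Sca1-high, basal and luminal libraries. The mean of 6 basal epithelial markers, which check the labelled gates, was 6.67 to 8.24 in Sca1-high and 8.12 to 9.34 in basal libraries, with 7.63 and 7.87 in LY6D+ and 5.35 and 5.93 in LY6D- luminal libraries. The mean of 4 luminal epithelial markers averaged 8.51 in Sca1-high, 9.25 in basal and 9.62 in luminal libraries. Ptprc, which encodes the CD45 used to remove blood cells, reached 8.90 in the luminal LY6D- library of mouse 5, and Pecam1, which encodes CD31, was 6.84 to 9.58 in Sca1-high libraries. Of all marker genes, Col17a1, a basal epithelial collagen, was called higher, and the macrophage genes Cd68, Adgre1, Mrc1 and Ctss lower, in basal than in luminal cells, and Emcn, an endothelial gene, was called higher in Sca1-high than in luminal cells. The part of any of these in the values below was not tested, except where a value without a library is given.

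A cell that divides passes through the phases of the cell cycle under the control of cyclin-dependent kinases, which act when bound by a cyclin and are held back by inhibitors such as the CIP/KIP proteins. D-type cyclins with CDK4 or CDK6 drive the cell out of the first gap phase by phosphorylating the retinoblastoma protein, which releases E2F factors that switch on the genes of DNA replication; a later wave of genes, including FOXM1 targets, serves mitosis. In the adult prostate of an intact animal most epithelial cells are at rest, and transcripts of the replication and mitosis genes come mainly from the cells that are cycling.

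Promoters of these genes are known for a few short elements: the CHR element TTTGAA and the CCAAT box CCAAT of genes that peak late in the cycle, and E2F sites, searched here as TTGGCGC and TTCCCGC. All were searched on both strands. The 300 bases from 250 before to 50 after the annotated start were taken from RefSeq (GRCm38.p6), using the first promoter listed for a gene, and 31 of the 38 genes had an entry. In those 31, the CHR letters stood in 12 promoters (38.7%), the CCAAT letters in 22 (71.0%) and an E2F site in 10 (32.3%). Of the first listed promoters of all 27025 genes with an entry, 18.1%, 37.9% and 6.93% held the same letters. In 1 of the 31 promoters the matches of 2 motifs overlapped. A match describes the letters and is not evidence of binding. The promoters of Mki67, Cdk1, Cdk6, Mcm6, Tyms and Cdc20 are printed 5′ to 3′ on the gene's strand, with every match in capitals. They are all the genes with an entry whose libraries did not overlap between 2 gates, picked after their values were seen. They lie at chr7:135716330-135716629 (Mki67), chr10:69352863-69353162 (Cdk1), chr1:128359656-128359955 (Mcm6), chr5:30073576-30073875 (Tyms) and chr4:118437294-118437593 (Cdc20) on the minus strand, and at chr5:3343643-3343942 (Cdk6) on the plus strand.
Mki67: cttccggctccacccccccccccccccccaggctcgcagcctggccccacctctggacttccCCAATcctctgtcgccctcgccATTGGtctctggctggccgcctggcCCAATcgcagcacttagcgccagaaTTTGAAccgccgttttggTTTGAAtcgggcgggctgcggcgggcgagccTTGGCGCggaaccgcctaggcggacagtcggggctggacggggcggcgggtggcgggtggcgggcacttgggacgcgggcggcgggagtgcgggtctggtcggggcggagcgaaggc
Cdk1: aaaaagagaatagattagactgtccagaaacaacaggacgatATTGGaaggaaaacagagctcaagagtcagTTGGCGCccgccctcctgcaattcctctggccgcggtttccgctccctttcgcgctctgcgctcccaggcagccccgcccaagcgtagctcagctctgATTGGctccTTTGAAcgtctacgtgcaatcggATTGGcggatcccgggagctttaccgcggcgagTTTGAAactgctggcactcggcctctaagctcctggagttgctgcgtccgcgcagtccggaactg
Cdk6: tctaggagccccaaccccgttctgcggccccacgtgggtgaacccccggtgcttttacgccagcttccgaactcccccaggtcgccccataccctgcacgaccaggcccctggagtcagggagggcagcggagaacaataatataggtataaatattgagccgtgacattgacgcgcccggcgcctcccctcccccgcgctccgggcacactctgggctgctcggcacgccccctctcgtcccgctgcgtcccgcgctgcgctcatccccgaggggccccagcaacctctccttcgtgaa
Mcm6: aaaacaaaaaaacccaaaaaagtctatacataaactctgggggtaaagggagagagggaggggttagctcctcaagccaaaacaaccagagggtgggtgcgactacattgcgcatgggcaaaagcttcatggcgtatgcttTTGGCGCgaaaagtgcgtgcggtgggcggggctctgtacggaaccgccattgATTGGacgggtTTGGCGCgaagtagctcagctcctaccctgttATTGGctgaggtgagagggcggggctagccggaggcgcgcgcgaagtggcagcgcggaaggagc
Tyms: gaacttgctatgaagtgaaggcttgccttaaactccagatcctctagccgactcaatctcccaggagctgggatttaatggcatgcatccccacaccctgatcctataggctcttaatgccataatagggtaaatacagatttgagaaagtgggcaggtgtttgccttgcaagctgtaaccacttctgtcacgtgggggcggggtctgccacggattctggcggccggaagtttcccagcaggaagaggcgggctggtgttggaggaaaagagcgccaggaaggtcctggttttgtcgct
Cdc20: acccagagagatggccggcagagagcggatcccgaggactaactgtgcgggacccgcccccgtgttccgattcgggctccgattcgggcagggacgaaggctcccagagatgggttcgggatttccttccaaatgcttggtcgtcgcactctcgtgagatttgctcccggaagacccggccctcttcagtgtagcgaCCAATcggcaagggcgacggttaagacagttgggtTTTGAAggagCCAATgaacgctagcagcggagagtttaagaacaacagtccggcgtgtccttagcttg
The Mki67 and Cdk1 promoters each held 2 CHR elements, 3 CCAAT boxes and 1 E2F site. The Cdc20 promoter held 1 CHR element, 2 CCAAT boxes and no E2F site of these letters. The Mcm6 promoter held 2 CCAAT boxes, 2 E2F sites and no CHR element. None of these letters stood in the Cdk6 and Tyms promoters.

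Most of the cell cycle genes varied little across the 12 libraries, as did most genes on the arrays. The range from the lowest to the highest library had a median of 1.04 over the 37 genes and of 1.19 over all 20135 genes tested. It exceeded 2 in 6 of the 37 (16.2%), against 21.9% of all genes, and stayed under 1.5 in 26. The 6 were Rrm2 (4.84), Ccnd1 (3.73), Cdk4 (3.39), Ccnd2 (3.04), Cdkn1b (3.01) and Cdkn1a (2.35), and none of them is a mitosis gene. By role, the median range was 0.81 for the 9 origin licensing and helicase genes, 0.79 for the 6 mitotic kinase, checkpoint and spindle genes and 2.35 for the 3 CIP/KIP inhibitors. In 25 of the 38 genes no library reached 5, which was also so for 55.9% of all genes. The map of values centred on each gene's mean shows these few genes as the strongly coloured rows.

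**Figure D1:**
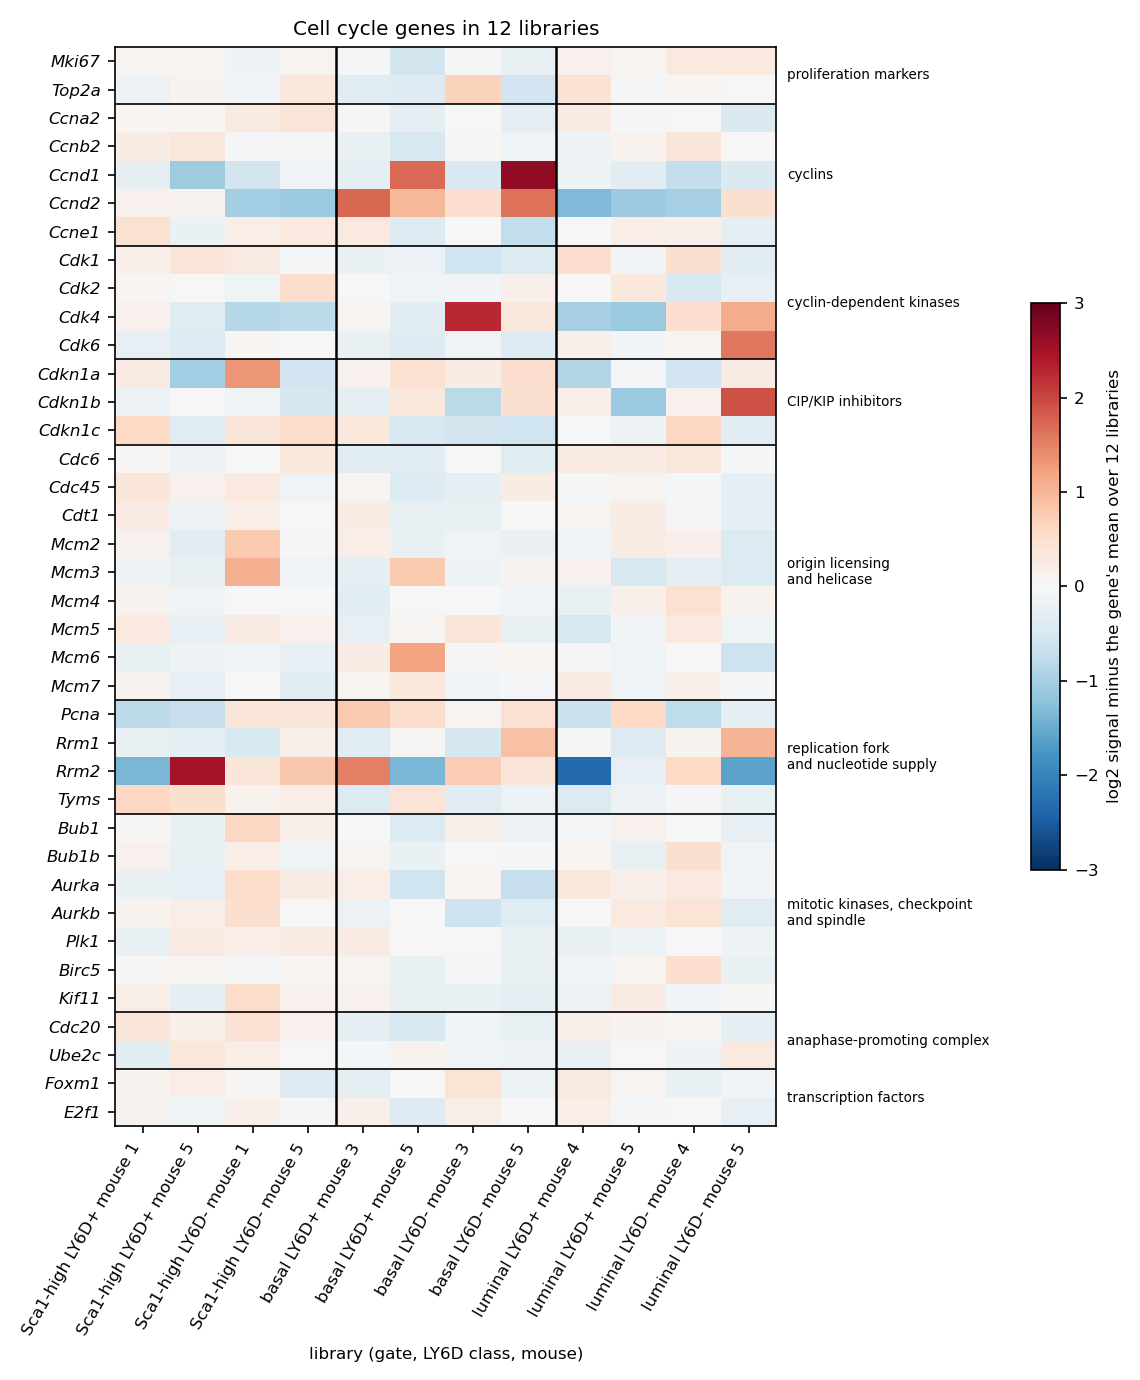
Log2 signal of the 38 cell cycle genes (rows, grouped by role) in the 12 libraries (columns, by gate, LY6D class and mouse), each gene centred on its mean over the libraries. Colours run from 3 below to 3 above that mean; Rrm2, Ccnd1, Cdk4, Ccnd2, Cdkn1b and Cdkn1a, with ranges of 2.35 to 4.84, carry most of the strong colour.

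The gates were compared over their 4 libraries each. No cell cycle gene passed limma's test at an adjusted p of 0.05 in any of these comparisons. For basal against luminal cells, 0 of 37 genes passed, where 0.417% of all genes did (0.139% higher and 0.278% lower), and 6 had an unadjusted p under 0.05 (9.44% of all genes). Cdk6 is among these 6. It passed the filter on low signal only through luminal libraries, where it was high, so its p supports nothing. For Sca1-high against luminal cells, 0 passed (0.139% of all genes, 0.0397% higher and 0.0993% lower) and 1 had an unadjusted p under 0.05 (8.41%). For Sca1-high against basal cells, 0 passed (0.00993% of all genes, all of it lower) and 8 had an unadjusted p under 0.05 (9.83%). A test of any difference among the 6 groups called 0 of 37 (0.0348% of all genes), with 3 at an unadjusted p under 0.05 (5.66%): Ccnd2 (adjusted p = 0.316), Cdk4 (0.546) and Pcna (0.833).

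The 95% interval of the difference lay between -1 and 1 in 27 of the 37 genes for Sca1-high against luminal cells, in 27 for Sca1-high against basal cells and in 25 for basal against luminal cells. The shares over all genes were 68.2%, 67% and 68.9%. The median difference of the 37 was 0.08 for Sca1-high minus luminal, 0.12 for Sca1-high minus basal and -0.05 for basal minus luminal, beside 0.07, 0.11 and -0.03 over all genes. When each array was centred on its own median, the median of all genes for Sca1-high minus basal moved from 0.11 to -0.02 and that of the cell cycle genes from 0.12 to -0.01, so the sign of this small difference depends on the scaling. The plot of differences with their intervals shows most genes at or near 0 in all 3 comparisons.

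**Figure D2:**
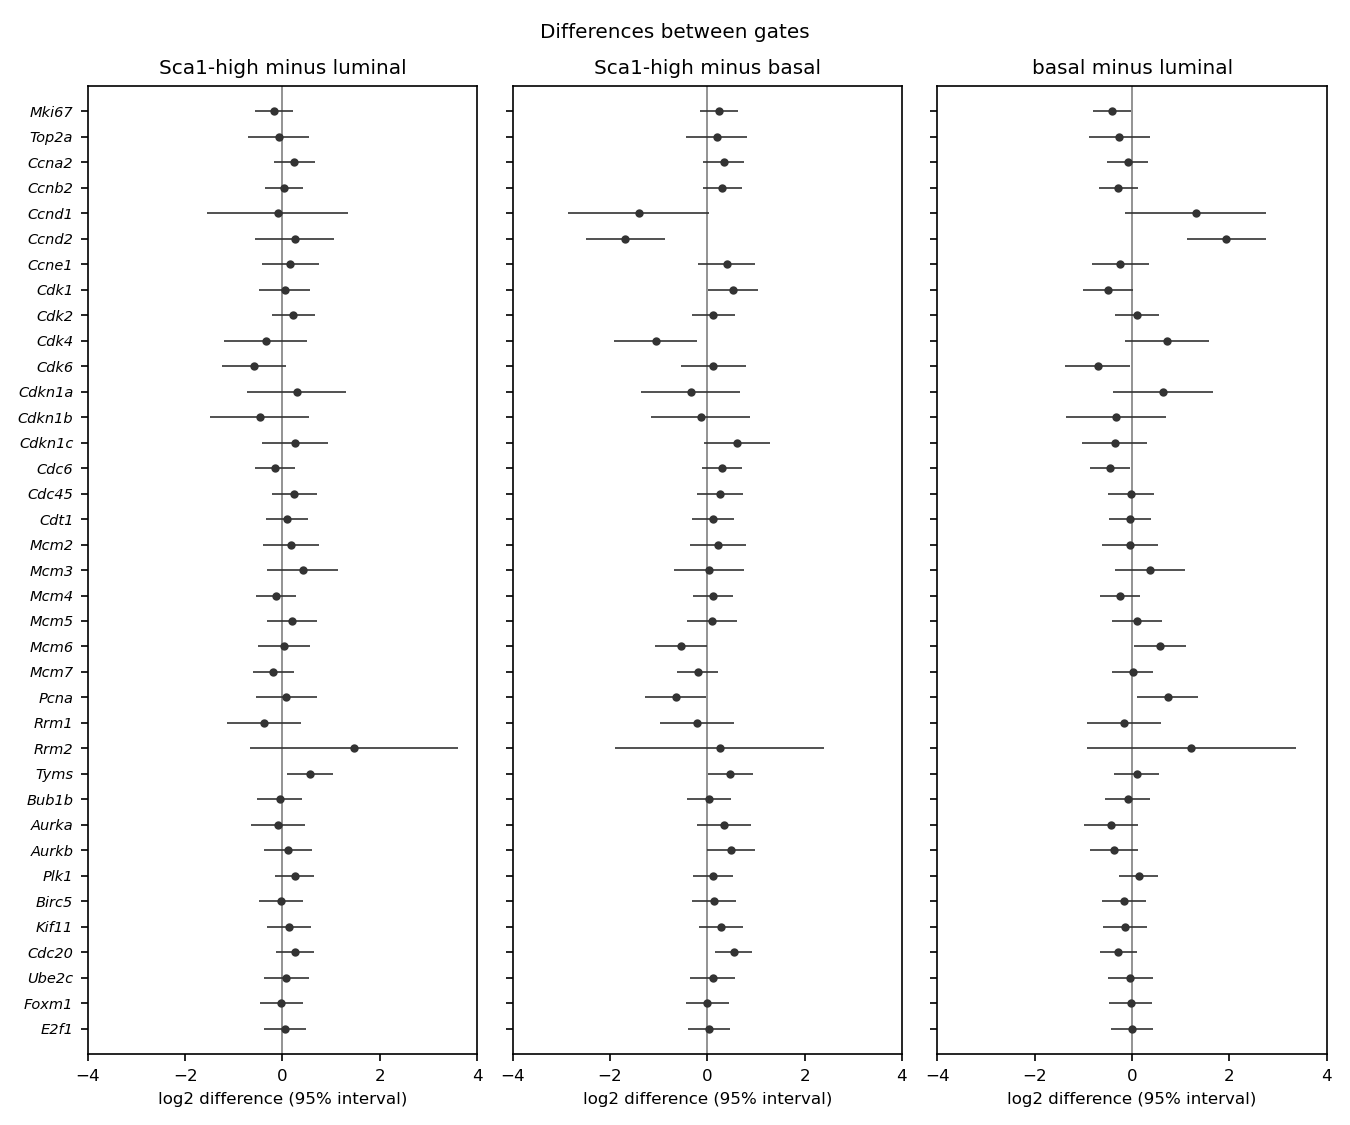
Log2 differences between gates for the 37 cell cycle genes tested, with 95% intervals from limma, in the comparisons Sca1-high minus luminal, Sca1-high minus basal and basal minus luminal (horizontal axis, log2). Ccnd2 lies at 1.94 for basal minus luminal and at -1.69 for Sca1-high minus basal, while 25 to 27 genes have intervals inside -1 to 1 in a comparison.

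Among the cyclins, Ccnd2 stood out. It encodes cyclin D2, one of the D-type partners of CDK4 and CDK6, and its signal was 6.39 and 6.37 in LY6D+ and 5.24 and 5.15 in LY6D- Sca1-high cells, 7.99 and 7.25 in LY6D+ and 6.76 and 7.88 in LY6D- basal cells, and 4.95 and 5.17 in LY6D+ and 5.28 and 6.74 in LY6D- luminal cells. All 4 basal libraries lay above all libraries of the other 2 gates, although the luminal LY6D- library of mouse 5, at 6.74, came close to the lowest basal one, at 6.76. The difference was 1.94 ± 0.36 for basal minus luminal (95% interval 1.12 to 2.75, adjusted p = 0.0679, limma) and -1.69 ± 0.36 for Sca1-high minus basal (adjusted p = 0.2). Neither passed the threshold. Without the luminal LY6D- library of mouse 5 the basal minus luminal difference was 2.30 with an adjusted p of 0.0352, and without the basal LY6D- library of mouse 3 it was 2.22 with an adjusted p of 0.0394; over all alternatives the adjusted p ran from 0.0352 to 0.261. Within mouse 5, which gave libraries of every group, basal minus luminal was 1.61, and between the other mice it was 2.26.

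Ccnd1, which encodes cyclin D1 and was taken up after its values were seen, differed between the mice within the basal gate. Its signal was 5.78 and 5.02 in LY6D+ and 5.54 and 5.98 in LY6D- Sca1-high cells, 5.79 and 7.79 in LY6D+ and 5.63 and 8.76 in LY6D- basal cells, and 5.94 and 5.77 in LY6D+ and 5.37 and 5.64 in LY6D- luminal cells. Both basal libraries of mouse 5 lay above all other libraries, and the basal libraries of mouse 3 lay among those of the other gates. The basal minus luminal difference was 2.56 within mouse 5 and 0.06 between the other mice, which gave 1.31 ± 0.64 in the fit (adjusted p = 0.592). These are also the 2 basal libraries whose array medians were low.

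The cyclins of later phases were close together. Ccna2, cyclin A2 of S phase and early mitosis, was 3.18 and 3.20 in LY6D+ and 3.40 and 3.52 in LY6D- Sca1-high cells, 3.16 and 2.84 in LY6D+ and 3.13 and 2.83 in LY6D- basal cells, and 3.38 and 3.11 in LY6D+ and 3.15 and 2.70 in LY6D- luminal cells. Its Sca1-high libraries lay just above the basal ones, with a Sca1-high minus basal difference of 0.34 ± 0.19 (adjusted p = 0.562). Ccnb2, a mitotic B-type cyclin, was 4.63 and 4.74 in LY6D+ and 4.34 and 4.38 in LY6D- Sca1-high cells, 4.20 and 3.92 in LY6D+ and 4.45 and 4.28 in LY6D- basal cells, and 4.25 and 4.51 in LY6D+ and 4.78 and 4.43 in LY6D- luminal cells. Its gates overlapped, as did those of Ccne1, the E-type cyclin of replication entry, which ranged from 3.70 to 4.91.

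The 2 proliferation markers differed by little between the gates. Mki67, which encodes the Ki-67 antigen, was 3.74 and 3.71 in LY6D+ and 3.50 and 3.74 in LY6D- Sca1-high cells, 3.60 and 3.11 in LY6D+ and 3.58 and 3.44 in LY6D- basal cells, and 3.77 and 3.73 in LY6D+ and 3.94 and 3.95 in LY6D- luminal cells. Every basal library was below every luminal one, with a basal minus luminal difference of -0.41 ± 0.17 (adjusted p = 0.492) and a 95% interval of -0.81 to -0.02. Without the 3 libraries of mouse 5 with low array medians, which leaves the basal gate to mouse 3, the difference was -0.26. Top2a, the topoisomerase of dividing cells, ranged from 3.03 to 4.30, with its highest and lowest library both among basal LY6D- cells (mouse 3 and mouse 5).

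Of the cyclin-dependent kinases, Cdk1, the kinase of mitotic entry, was 3.70 and 3.93 in LY6D+ and 3.81 and 3.50 in LY6D- Sca1-high cells, 3.35 and 3.37 in LY6D+ and 2.96 and 3.13 in LY6D- basal cells, and 4.06 and 3.47 in LY6D+ and 4.02 and 3.23 in LY6D- luminal cells. Each Sca1-high library exceeded each basal one, and the luminal libraries ran from 3.23 to 4.06. The Sca1-high minus basal difference was 0.53 ± 0.23 (adjusted p = 0.498). Cdk6, the second partner of the D cyclins, was 2.59 and 2.46 in LY6D+ and 2.91 and 2.83 in LY6D- Sca1-high cells, 2.62 and 2.45 in LY6D+ and 2.74 and 2.47 in LY6D- basal cells, and 2.99 and 2.75 in LY6D+ and 2.94 and 4.43 in LY6D- luminal cells. Only 2 libraries, both luminal, exceeded the table's lower quartile of 2.98, so it passed the filter on low signal through the gate in which it was high. The basal minus luminal difference was -0.71 ± 0.29 (adjusted p = 0.486); it was -0.23 without the 3 libraries of mouse 5 with low array medians, -0.34 without the luminal LY6D- library of mouse 5, -1.13 with the mouse as a block, and -1.08 with an adjusted p of 0.0328 without the luminal LY6D- library of mouse 4, and over all alternatives the adjusted p ran from 0.0328 to 0.935. The library that held the high Cdk6 value also had the highest mean of myeloid markers (8.08) and of lymphoid markers (4.77), whose part in it was not tested.

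Cdk4 varied within every gate. Its signal was 5.80 and 5.29 in LY6D+ and 4.79 and 4.86 in LY6D- Sca1-high cells, 5.74 and 5.33 in LY6D+ and 7.93 and 6.01 in LY6D- basal cells, and 4.67 and 4.54 in LY6D+ and 6.15 and 6.77 in LY6D- luminal cells. The gates overlapped, with means of 5.19 ± 0.46, 6.25 ± 1.15 and 5.53 ± 1.10 in Sca1-high, basal and luminal cells (SD, n = 4 each). The Sca1-high minus basal difference was -1.06 ± 0.38 (adjusted p = 0.439). It was -0.58 without the basal LY6D- library of mouse 3, -0.59 with the mouse as a block and -1.65 without the 3 libraries of mouse 5 with low array medians. The LY6D classes did not overlap within any of the 3 gates, but LY6D+ was the higher class in Sca1-high cells and the lower in basal and luminal cells. With 2 libraries a class such separation comes easily, and its share over all genes is not given here. Cdk2, the partner of the E- and A-type cyclins, stayed within 3.50 to 4.48.

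**Figure D3:**
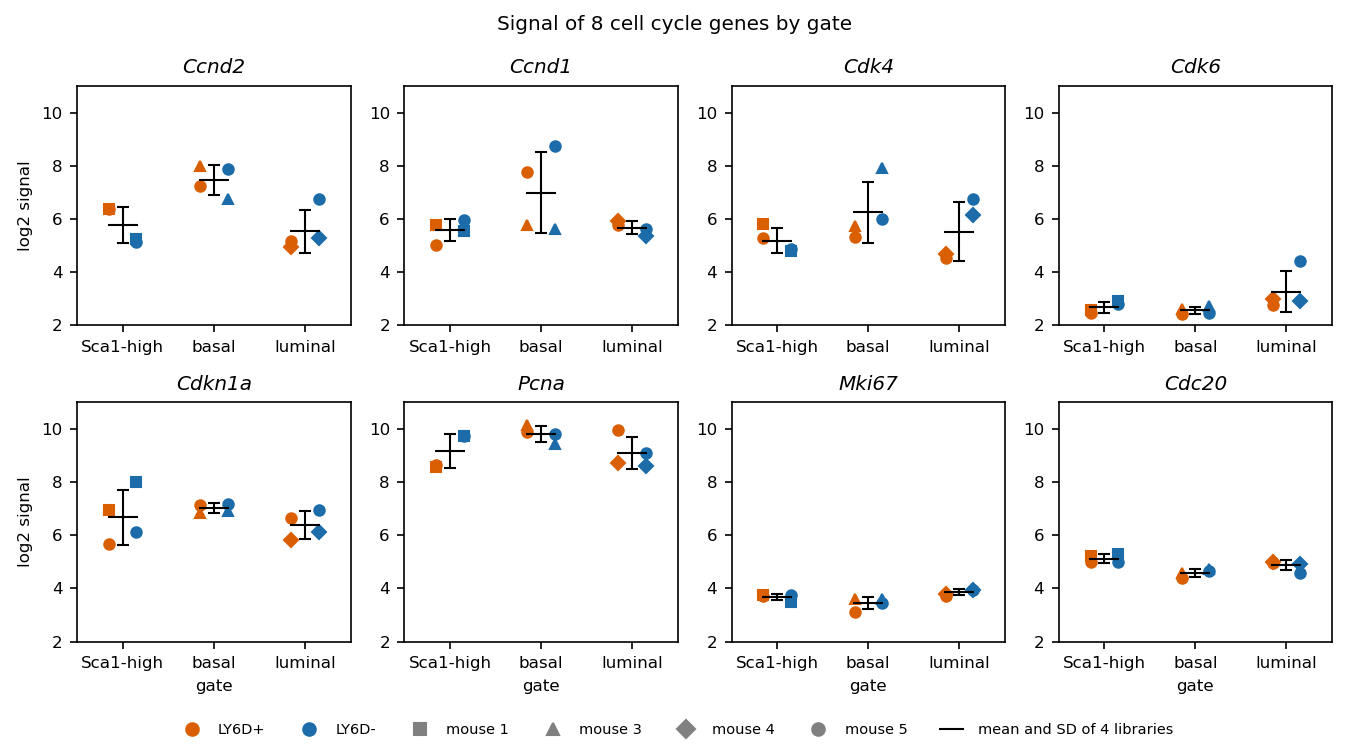
Log2 signal of 8 cell cycle genes by gate, 1 point per library, coloured by LY6D class and shaped by mouse, with the mean and SD of the 4 libraries of a gate. Ccnd2 lies highest in the basal gate (7.47 ± 0.57), the high basal points of Ccnd1 are both from mouse 5, and Mki67 and Cdc20 differ little between gates.

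The CIP/KIP inhibitors overlapped between all gates. Cdkn1a, which encodes p21 and is a target of p53, was 6.93 and 5.65 in LY6D+ and 8.01 and 6.11 in LY6D- Sca1-high cells, 6.82 and 7.14 in LY6D+ and 6.91 and 7.19 in LY6D- basal cells, and 5.81 and 6.64 in LY6D+ and 6.12 and 6.94 in LY6D- luminal cells. Cdkn1b, which encodes p27, was 4.58 and 4.75 in LY6D+ and 4.65 and 4.25 in LY6D- Sca1-high cells, 4.50 and 5.08 in LY6D+ and 3.96 and 5.24 in LY6D- basal cells, and 4.91 and 3.66 in LY6D+ and 4.88 and 6.67 in LY6D- luminal cells. Its highest and lowest values, 6.67 and 3.66, were the 2 luminal libraries of mouse 5. Cdkn1c, which encodes p57, was 5.69 and 4.74 in LY6D+ and 5.47 and 5.65 in LY6D- Sca1-high cells, 5.42 and 4.63 in LY6D+ and 4.55 and 4.49 in LY6D- basal cells, and 5.10 and 4.93 in LY6D+ and 5.72 and 4.77 in LY6D- luminal cells. Differences between gates were 0.64 or less for all 3 in either direction, and the smallest adjusted p among them was 0.53.

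Origin licensing genes load and fire the replicative helicase, of which Mcm2 to Mcm7 encode the ring. None of the 9 genes passed the test. The fitted difference was positive in 7 of 9 for Sca1-high minus basal, but in 3 of 9 with centred arrays, and in 4 of 9 for basal minus luminal, or 6 of 9 with centred arrays. Mcm6 was 3.87 and 3.94 in LY6D+ and 4.00 and 3.84 in LY6D- Sca1-high cells, 4.31 and 5.26 in LY6D+ and 4.12 and 4.15 in LY6D- basal cells, and 4.06 and 3.95 in LY6D+ and 4.07 and 3.47 in LY6D- luminal cells. Its basal libraries lay above all others, and the highest, 5.26, was that of basal LY6D+ cells of mouse 5. The basal minus luminal difference was 0.57 ± 0.24 (adjusted p = 0.484), and it was 0.18 without the 3 libraries of mouse 5 with low array medians, 0.34 without the basal LY6D+ one alone and 1.00 with the mouse as a block. The Sca1-high minus basal difference was -0.55 ± 0.24 (adjusted p = 0.504), or -0.30 without them. Cdc6, the licensing ATPase, was 3.63 and 3.45 in LY6D+ and 3.60 and 3.92 in LY6D- Sca1-high cells, 3.30 and 3.30 in LY6D+ and 3.58 and 3.25 in LY6D- basal cells, and 3.88 and 3.85 in LY6D+ and 3.95 and 3.54 in LY6D- luminal cells. Its basal and luminal libraries overlapped in 1 library each, both LY6D- (3.58 of mouse 3 and 3.54 of mouse 5), at a difference of -0.45 ± 0.18 (adjusted p = 0.47). Mcm3 was 3.88 and 3.80 in LY6D+ and 5.10 and 3.92 in LY6D- Sca1-high cells, 3.73 and 4.81 in LY6D+ and 3.88 and 4.12 in LY6D- basal cells, and 4.16 and 3.53 in LY6D+ and 3.73 and 3.62 in LY6D- luminal cells. Its 2 high values, in Sca1-high LY6D- cells of mouse 1 and basal LY6D+ cells of mouse 5, were not shared by the other library of the group. The remaining 6 genes ranged from 3.29 to 4.03 (Cdc45), 4.69 to 5.24 (Cdt1), 3.78 to 4.99 (Mcm2), 3.66 to 4.46 (Mcm4), 3.66 to 4.52 (Mcm5) and 4.01 to 4.66 (Mcm7).

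Genes of the replication fork and of nucleotide supply varied more. Pcna, the sliding clamp of the DNA polymerases, which also serves DNA repair, was 8.58 and 8.65 in LY6D+ and 9.71 and 9.72 in LY6D- Sca1-high cells, 10.14 and 9.88 in LY6D+ and 9.43 and 9.80 in LY6D- basal cells, and 8.71 and 9.95 in LY6D+ and 8.59 and 9.08 in LY6D- luminal cells. Its gates overlapped. The basal mean of 9.81 ± 0.30 exceeded the luminal mean of 9.08 ± 0.62 (SD, n = 4 each) by 0.73 ± 0.28 (adjusted p = 0.422), and Sca1-high minus basal was -0.65 ± 0.28 (adjusted p = 0.495). The basal minus luminal difference was 0.42 without the luminal LY6D+ library of mouse 4 and 0.32 with the mouse as a block. Tyms, the thymidylate synthase, was 6.41 and 6.26 in LY6D+ and 5.89 and 5.98 in LY6D- Sca1-high cells, 5.38 and 6.18 in LY6D+ and 5.48 and 5.61 in LY6D- basal cells, and 5.37 and 5.61 in LY6D+ and 5.73 and 5.55 in LY6D- luminal cells. All Sca1-high libraries lay above all luminal ones, as for no other of the 37 genes, at 0.57 ± 0.21 (adjusted p = 0.514); against basal cells the difference was 0.47 ± 0.21 (adjusted p = 0.504), with 1 basal library, LY6D+ of mouse 5, inside the Sca1-high range. The difference from basal cells was 0.27 without the basal LY6D+ library of mouse 3 and 0.22 with the mouse as a block.

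The subunits of ribonucleotide reductase, which makes deoxyribonucleotides, did not follow the gates. Rrm2, the regulated subunit, was 3.64 and 7.51 in LY6D+ and 5.35 and 5.81 in LY6D- Sca1-high cells, 6.52 and 3.63 in LY6D+ and 5.77 and 5.36 in LY6D- basal cells, and 2.67 and 4.75 in LY6D+ and 5.60 and 3.40 in LY6D- luminal cells. High and low values fell in every gate, the Sca1-high minus luminal difference was 1.47 ± 0.95 (adjusted p = 0.705), and a second probe set of the gene ranged only from 3.70 to 5.11, so the 2 probe sets disagree. Rrm1, the large subunit, was 3.55 and 3.50 in LY6D+ and 3.31 and 3.96 in LY6D- Sca1-high cells, 3.44 and 3.81 in LY6D+ and 3.28 and 4.66 in LY6D- basal cells, and 3.74 and 3.40 in LY6D+ and 3.89 and 4.80 in LY6D- luminal cells. The 2 highest values were LY6D- libraries of mouse 5, luminal and basal. Sca1-high minus luminal was -0.38 ± 0.34 (adjusted p = 0.786).

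Mitotic kinase, checkpoint and spindle genes were among the least variable. Their signals ran from 2.75 to 4.64, beside a table median of 3.90 and lower quartile of 2.98. Whether low signal limited their range was not tested. None of the 6 that passed the filter passed the test. For Sca1-high minus basal all 6 had a positive fitted difference, of 0.04 to 0.50, and with centred arrays 4 of the 6 did. Of all genes, 64.2% were positive in that comparison before centring. Aurkb, the kinase of the chromosomal passenger complex, was 4.25 and 4.34 in LY6D+ and 4.62 and 4.16 in LY6D- Sca1-high cells, 3.97 and 4.11 in LY6D+ and 3.52 and 3.77 in LY6D- basal cells, and 4.15 and 4.44 in LY6D+ and 4.54 and 3.77 in LY6D- luminal cells. Sca1-high libraries lay just above basal ones, with a difference of 0.50 ± 0.22 (adjusted p = 0.507), or 0.30 with the mouse as a block. Aurka, the centrosomal kinase, was 3.90 and 3.86 in LY6D+ and 4.64 and 4.32 in LY6D- Sca1-high cells, 4.29 and 3.51 in LY6D+ and 4.17 and 3.40 in LY6D- basal cells, and 4.41 and 4.26 in LY6D+ and 4.40 and 4.02 in LY6D- luminal cells. Both basal libraries of mouse 5 were low. Bub1b, Plk1, Birc5 and Kif11, which encode the checkpoint protein BUBR1, polo-like kinase, survivin and a spindle kinesin, ranged from 3.51 to 4.22, 4.00 to 4.50, 2.75 to 3.49 and 2.86 to 3.70.

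Cdc20, the activator of the anaphase-promoting complex, had the smallest unadjusted p of the genes higher in Sca1-high than in basal cells. It was 5.21 and 5.00 in LY6D+ and 5.29 and 4.98 in LY6D- Sca1-high cells, 4.57 and 4.40 in LY6D+ and 4.72 and 4.63 in LY6D- basal cells, and 5.00 and 4.95 in LY6D+ and 4.90 and 4.59 in LY6D- luminal cells. The Sca1-high libraries all exceeded the basal ones, at 0.54 ± 0.17 (adjusted p = 0.381), a difference of 0.59 without the Sca1-high LY6D+ library of mouse 5 and of 0.48 without the 3 libraries of mouse 5 with low medians. Against luminal cells the Sca1-high difference was 0.26 ± 0.17 (adjusted p = 0.711), and the gates overlapped. Ube2c, its ubiquitin-conjugating partner, stayed within 3.25 to 3.91. The transcription factors differed by little: Foxm1, which drives mitotic genes, was 4.43 and 4.51 in LY6D+ and 4.36 and 3.94 in LY6D- Sca1-high cells, 4.04 and 4.30 in LY6D+ and 4.74 and 4.17 in LY6D- basal cells, and 4.60 and 4.41 in LY6D+ and 4.10 and 4.24 in LY6D- luminal cells, and E2f1 ranged from 4.17 to 4.77.

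Counted by whether libraries overlapped, 4 genes separated basal from luminal libraries (5.75% of all genes), 1 separated Sca1-high from luminal libraries (6.04%) and 6 separated Sca1-high from basal libraries (7.04%). Here 2 genes (Ccnd2 and Mcm6) lay wholly higher and 2 (Mki67 and Cdk6) wholly lower in basal than in luminal libraries, which 2.58% and 3.17% of all genes did. Of these, Cdk6 entered the test only through luminal libraries, so that its separation supports nothing, and all its basal signals lay below the filter. In Sca1-high against luminal libraries, Tyms lay higher and no gene lower (3.57% and 2.48% of all genes). In Sca1-high against basal libraries, 4 genes (Ccna2, Cdk1, Aurkb and Cdc20) lay higher and 2 (Ccnd2 and Mcm6) lower, where 4.77% and 2.26% of all genes did. With arrays centred on their medians, an alternative chosen after seeing the data, only Cdc20 remained among the 4 that lay higher, and Ccnd2 and Mcm6 among those that lay lower, where 2.09% and 3.35% of all genes did. In basal against luminal libraries, centring took Ccnd2 off the list and added Cdc6 as lower, which left 1 higher and 3 lower (3.22% and 2.73% of all genes). In Sca1-high against luminal libraries it added Mki67 as lower, which gave 1 each way (2.27% and 3.3%).

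LY6D+ cells were then set against LY6D- cells of the same gate. No cell cycle gene passed limma's test in any LY6D comparison. The counts were 0 of 37 in Sca1-high cells (0% of all genes), 0 in basal cells (0.00993%), 0 in luminal cells (0%) and 0 over the 3 gates (0%). At an unadjusted p under 0.05 they were 2 in Sca1-high cells (2.41% of all genes), 1 in basal cells (2.2%), 2 in luminal cells (3.56%) and 1 over the gates (2.62%). The median LY6D+ minus LY6D- difference of the 37 genes was -0.09 in Sca1-high, 0.02 in basal and 0.06 in luminal cells, beside -0.04, 0.02 and 0.02 over all genes. Over the gates it was -0.04 against 0.00 for all genes. With 2 libraries a group these comparisons are less precise: 21, 21 and 23 of the 37 intervals lay between -1 and 1 in Sca1-high, basal and luminal cells, and 31 over the gates. Of all genes, 44.1%, 46.2%, 43.7% and 82.6% did.

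Cdk4 gave the smallest unadjusted p of the LY6D comparisons in luminal cells. From the values above, both LY6D+ luminal libraries lay below both LY6D- ones, by 1.48 in mouse 4 and 2.24 in mouse 5, a difference of -1.86 ± 0.54 (adjusted p = 1). In basal cells LY6D+ libraries were lower by 2.19 in mouse 3 and 0.67 in mouse 5 (-1.43 ± 0.54, adjusted p = 1), a difference of -0.47 without the LY6D- library of mouse 3 and -2.39 without that of mouse 5. In Sca1-high cells they were higher by 1.01 in mouse 1 and 0.43 in mouse 5 (0.72 ± 0.54, adjusted p = 1). The test of the difference between gates gave 2.58 ± 0.76 for Sca1-high minus luminal and 2.15 ± 0.76 for Sca1-high minus basal, both with an adjusted p of 1. Over the gates LY6D+ minus LY6D- was -0.86 ± 0.31 (adjusted p = 1), and -0.54 without the basal LY6D- library of mouse 3. In the luminal gate the mean of basal epithelial markers and in the basal gate the mean of endothelial markers also differed between LY6D classes, as given above, and their part was not tested.

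Pcna and Ccnd2 differed between LY6D classes in the Sca1-high gate in the same way in both mice. Pcna was lower in LY6D+ cells by 1.13 in mouse 1 and 1.06 in mouse 5 (-1.10 ± 0.39, adjusted p = 1). In basal cells it was higher in LY6D+ cells by 0.72 and 0.08, and in luminal cells by 0.12 and 0.87. Ccnd2 was higher in LY6D+ Sca1-high cells by 1.15 and 1.22 (1.19 ± 0.51, adjusted p = 1), higher in basal LY6D+ cells by 1.23 in mouse 3, lower there by 0.63 in mouse 5, and lower in luminal LY6D+ cells by 0.33 and 1.57. The Sca1-high values include the library labelled LY6D+ whose Ly6d signal was below that of its LY6D- partner. The tests of whether the LY6D difference itself differed between gates called no gene. At an unadjusted p under 0.05 they gave 3 of 37 cell cycle genes for Sca1-high against luminal (2.92% of all genes), namely Cdk4, Pcna and Ccnd2, and 2 for Sca1-high against basal (2.36%), namely Cdk4 and Pcna. They gave 0 for basal against luminal (2.45%).

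**Figure D4:**
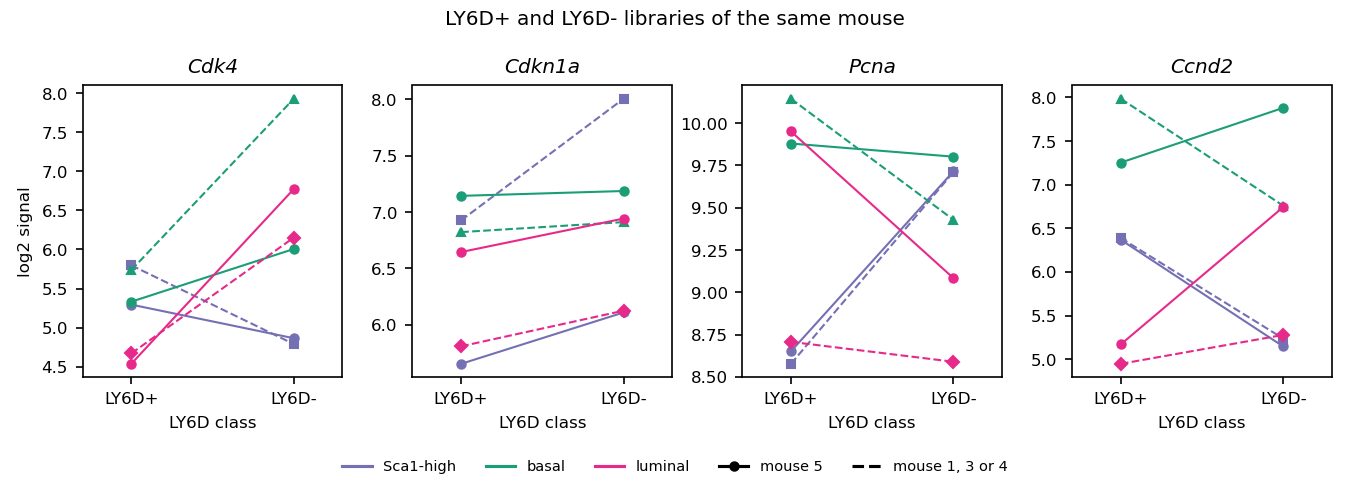
Log2 signal of Cdk4, Cdkn1a, Pcna and Ccnd2 in the LY6D+ and LY6D- libraries of the same mouse, joined by a line, coloured by gate, with mouse 5 as solid lines and the other mice dashed; each panel has its own vertical axis. Cdkn1a is lower in LY6D+ than in LY6D- cells in all 6 pairs, and Cdk4 is lower in the basal and luminal pairs and higher in the Sca1-high pairs.

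Of the 37 genes, Cdkn1a alone had the same sign in all 6 pairs. LY6D+ minus LY6D- was -1.08 and -0.46 in the Sca1-high gate, -0.09 and -0.04 in the basal gate and -0.32 and -0.30 in the luminal gate. Of all genes, 2.84% kept 1 sign in all 6 pairs, and 1.39% were lower in all 6. The difference over the gates was -0.38 ± 0.37 (adjusted p = 1). In luminal cells Cdkn1b was lower in LY6D+ libraries by 3.01 in mouse 5, while in mouse 4 the difference was 0.02 (-1.49 ± 0.64, adjusted p = 1). It was -0.60 without the LY6D- library of mouse 5, -0.87 without the LY6D+ one and -2.39 without the LY6D- library of mouse 4. Mki67 differed between LY6D classes by 0.10 ± 0.25 in Sca1-high, -0.16 ± 0.25 in basal and -0.19 ± 0.25 in luminal cells, and each of these has an interval that includes 0.

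The other genes with the smallest p of the LY6D comparisons all had an adjusted p of 1. In Sca1-high cells they were Tyms (0.40 ± 0.29), Aurka (-0.60 ± 0.35) and Mcm3 (-0.67 ± 0.45). In basal cells they were Mcm6 (0.65 ± 0.34), Aurkb (0.39 ± 0.31), Cdkn1c (0.50 ± 0.42), Ccnb2 (-0.31 ± 0.25) and Foxm1 (-0.28 ± 0.28). In luminal cells they were Cdk2 (0.51 ± 0.28), Cdt1 (0.34 ± 0.27) and Cdk6 (-0.81 ± 0.42). The Cdk6 difference was -1.67 in mouse 5 and 0.05 in mouse 4, and Cdk6 passed the filter on low signal only through luminal libraries. That of Foxm1 in basal cells was -0.70 in mouse 3 and 0.13 in mouse 5. That of Mcm3 in Sca1-high cells was -1.22 in mouse 1 and -0.12 in mouse 5. Cdk2 was 4.02 and 3.97 in LY6D+ and 3.84 and 4.48 in LY6D- Sca1-high cells, 3.98 and 3.87 in LY6D+ and 3.88 and 4.11 in LY6D- basal cells, and 3.95 and 4.27 in LY6D+ and 3.50 and 3.71 in LY6D- luminal cells, and both luminal LY6D+ libraries exceeded both LY6D- ones. Cdt1, the licensing factor, was 5.24 and 4.82 in LY6D+ and 5.18 and 4.98 in LY6D- Sca1-high cells, 5.22 and 4.76 in LY6D+ and 4.77 and 5.00 in LY6D- basal cells, and 5.08 and 5.20 in LY6D+ and 4.92 and 4.69 in LY6D- luminal cells, with the same order in the luminal gate. The share of all genes with such an order is not given here.

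Cell cycle genes outside the 40 gave no calls either. Of 41 further replication genes 37 were tested, of 54 further mitosis genes 45, and of 39 further regulators 36, and 0 of each passed limma's test in any of the 7 comparisons. Their range over the libraries had a median of 0.93 for replication genes, 0.98 for mitosis genes and 1.36 for regulators, and exceeded 2 in 5, 2 and 14 of them. For Sca1-high minus basal, 41 of the 45 mitosis genes had a positive difference, beside 64.2% of all genes, with a median of 0.21 beside 0.11 over all genes, and with centred arrays 29 of the 45 were positive, with a median of 0.083 beside -0.02. Only Kif18b, a mitotic kinesin, had an unadjusted p under 0.05 among them (0.60 ± 0.23, adjusted p = 0.471). In that comparison Cdkn2d, an INK4 inhibitor, was 0.42 ± 0.16 (adjusted p = 0.475). Counted by overlap, Tk1 lay wholly higher in basal than in luminal libraries and none lay lower, where 2.58% and 3.17% of all genes did. Rpa2, Dut and E2f7 lay wholly higher in Sca1-high than in luminal libraries and none lay lower (3.57% and 2.48% of all genes). In Sca1-high against basal libraries 7 lay higher (Rpa2, Hells, Gtse1, Cdkn2b, Cdkn2d, Rbl2 and Tfdp2) and Cdk7 lower. Of all genes, 4.77% and 2.26% did. These overlaps were counted without centring the arrays, and whether they hold with centred arrays is not given here. Among the cell cycle genes above, centring left only Cdc20 wholly higher in Sca1-high than in basal libraries. Hells exceeded the table's lower quartile of 2.98 only in the Sca1-high libraries of mouse 1 (2.99 and 3.14), so its separation supports nothing. Exo1 was higher, and Rfc5, Lig1, Kif2c and Ncaph were lower, in the LY6D+ library of all 6 pairs. Of all genes, 1.45% were higher and 1.39% lower in all 6.

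Among the regulators, Btg2, an antiproliferative p53 target and early response gene, was 7.35 and 5.68 in LY6D+ and 7.37 and 8.82 in LY6D- Sca1-high cells, 10.01 and 10.21 in LY6D+ and 8.48 and 8.55 in LY6D- basal cells, and 8.39 and 8.30 in LY6D+ and 8.28 and 9.32 in LY6D- luminal cells. Sca1-high minus basal was -2.01 ± 0.43 (adjusted p = 0.2), with 1 Sca1-high library, LY6D- of mouse 5, inside the basal range, and Sca1-high minus luminal was -1.27 ± 0.43 (adjusted p = 0.457). E2f4, an E2F factor of resting cells, was 5.67 and 5.74 in LY6D+ and 5.70 and 5.89 in LY6D- Sca1-high cells, 7.47 and 7.38 in LY6D+ and 5.49 and 6.83 in LY6D- basal cells, and 4.85 and 6.75 in LY6D+ and 5.59 and 6.06 in LY6D- luminal cells. It differed by 0.98 ± 0.42 for basal minus luminal and -1.04 ± 0.42 for Sca1-high minus basal (adjusted p = 0.498 and 0.482). Rbl2, the retinoblastoma relative p130, was 3.93 and 3.59 in LY6D+ and 3.67 and 3.55 in LY6D- Sca1-high cells, 3.42 and 2.71 in LY6D+ and 2.96 and 3.24 in LY6D- basal cells, and 5.30 and 2.89 in LY6D+ and 4.01 and 5.64 in LY6D- luminal cells, and basal minus luminal was -1.38 ± 0.52 (adjusted p = 0.422). Tk1, the thymidine kinase of S phase, was 4.82 and 4.61 in LY6D+ and 5.00 and 4.51 in LY6D- Sca1-high cells, 5.01 and 5.53 in LY6D+ and 4.98 and 5.42 in LY6D- basal cells, and 4.81 and 4.50 in LY6D+ and 4.51 and 4.45 in LY6D- luminal cells. The basal libraries lay above all luminal ones, at 0.66 ± 0.21 (adjusted p = 0.315). Against luminal cells, Sca1-high cells differed by 0.53 ± 0.19 in Rpa2, which binds single-stranded DNA, 0.66 ± 0.25 in Mybl2, a transcription factor of dividing cells, and -2.67 ± 1.17 in Ccng1, a p53 target, with adjusted p of 0.518, 0.524 and 0.586. Ccng1 was 4.00 and 5.38 in LY6D+ and 3.10 and 9.37 in LY6D- Sca1-high cells. In luminal cells it was 7.95 and 8.89 in LY6D+ and 6.90 and 8.80 in LY6D- libraries. The Sca1-high LY6D- library of mouse 5 thus lay above all luminal ones. Over the gates, the smallest unadjusted p of LY6D+ minus LY6D- in these lists was that of Rfc5, a subunit of the clamp loader, at -0.60 ± 0.18 (adjusted p = 1), from 4.62 and 4.72 in LY6D+ and 5.22 and 4.94 in LY6D- Sca1-high cells, 4.62 and 4.45 in LY6D+ and 5.07 and 5.86 in LY6D- basal cells, and 4.53 and 4.65 in LY6D+ and 5.29 and 4.80 in LY6D- luminal cells.

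Within the gates the further genes with the smallest p in each direction again had an adjusted p of 1. In Sca1-high cells LY6D+ minus LY6D- was 0.52 ± 0.28 for Gins4, a subunit of the replicative helicase complex, 0.81 ± 0.50 for Mdm2, which restrains p53, -2.07 ± 0.70 for Gadd45b, a stress response gene, and -1.59 ± 0.61 for Btg2. In basal cells it was 1.60 ± 0.61 for Btg2, 1.26 ± 0.59 for E2f4, -0.93 ± 0.31 for Rfc5 and -0.57 ± 0.33 for Ccnd3, the third D-type cyclin. In luminal cells it was 0.75 ± 0.37 for Fen1, the flap endonuclease, 0.69 ± 0.38 for Tfdp2, a partner of E2F factors, -0.82 ± 0.31 for Lin9, of the complex that binds CHR elements, and -1.20 ± 0.57 for Ccnh, a cyclin of the CDK-activating kinase. Over the gates it was 0.20 ± 0.14 for Orc1, of the origin recognition complex, 1.09 ± 0.85 for Wee1, the kinase that holds back mitotic entry, and -1.17 ± 0.54 for E2f5. The pairs of Wee1 ran from -2.77 in Sca1-high cells of mouse 5 to 3.90 in basal cells of mouse 3. Those of E2f5 ran from -3.06 to 0.97 in the same 2 pairs. For Btg2 the Sca1-high value came from mouse 5, at -3.14 against -0.029 in mouse 1, and its LY6D+ library is the one with the low Krt18 signal and a Ly6d signal below that of its partner. In basal cells Btg2 was higher in LY6D+ libraries by 1.53 in mouse 3 and 1.67 in mouse 5. The test of the difference between these gates gave -3.18 ± 0.86 (adjusted p = 1). For basal minus luminal, Anln, a scaffold of the cleavage furrow, was -0.53 ± 0.22 (adjusted p = 0.491).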

How the data were processed

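Total RNA of sorted prostate cells was extracted with the RNeasy kit and then amplified for labelling (NuGEN Ovation V2), per the labels' protocols. The authors deposited 1 log2 signal per probe set and array, made with RMA per the submitters' processing notes (oligo package), with versions not given in the sources used here. The values (0.695 to 14.3) were used as deposited and were not set against scanner files. Probe sets were named through the platform annotation: 23521 of 41345 carried 1 symbol, 1814 several and 16010 were not listed, and the brightest single-symbol probe set stood for a gene. Of 22180 genes, the 20135 that exceeded the table's lower quartile on at least 2 arrays were fitted in R 4.3.3 with limma 3.58.1, with a mean for each of 6 groups, 6 residual and 3.28 prior degrees of freedom, eBayes and Benjamini-Hochberg adjustment over all genes at 0.05. Every p in the text comes from limma, from this fit unless a left-out library, a block or another alternative is named beside it. The pipeline was tested on simulated data. The LY6D+ and LY6D- libraries of a mouse come from the same animal by the labels, so the mouse number pairs them; their deviations from the group means had a correlation of 0.149 for Sca1-high, 0.407 for basal and 0.0220 for luminal libraries. The mouse was left out of the fit and entered as a replicate block in alternatives. As a fixed block it leaves the gate differences to mouse 5 alone. The 12 arrays, not a read depth, limit the precision.

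The cell cycle genes, the other gene lists and the alternatives were chosen with earlier results of these data known. Values in every library were given for genes past the threshold, for the 3 genes with the smallest unadjusted p in each direction of each comparison and for genes whose libraries did not overlap between 2 gates; Ccnd1, Cdkn1a, Cdkn1c in all gates and Ly6d were added after their values were seen. From the 3 lists of further cell cycle genes, pooled, the 2 with the smallest p in each direction of each comparison were named, and those counted by overlap or sign were named after their values were seen. Marker lists covered basal, luminal and proximal luminal epithelium, myeloid, lymphoid, endothelial, fibroblast, smooth muscle and neuroendocrine cells. The means of the remaining lists were 4.16 to 7.52, 3.71 to 5.11 and 3.73 to 3.90 in Sca1-high, basal and luminal libraries for proximal luminal markers, 5.81 to 6.29, 5.26 to 6.09 and 5.37 to 5.99 for fibroblast markers, 4.71 to 4.83, 4.44 to 4.69 and 4.54 to 5.58 for smooth muscle markers, and 5.13 to 5.71, 4.73 to 5.35 and 4.53 to 5.60 for neuroendocrine markers.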

Additional observations from a re-analysis of the deposited data

Results flagged for a closer look

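Groups of 2 libraries are too small to test for a library that stands apart, so the 4 libraries of each gate were used. A library was taken to stand apart when its gap to the nearest other, divided by the range of the gate, exceeded Dixon's critical value for 4 values at 95%. Of 111 sets, 6 did, and chance gives about 1 in 20. Mki67 was 3.50 in Sca1-high LY6D- cells of mouse 1, against 3.71 to 3.74 in the other Sca1-high libraries. Mcm3 was 5.10 in the same library, against 3.80 to 3.92. Cdc6 was 3.58 in basal LY6D- cells of mouse 3, against 3.25 to 3.30 in the other basal libraries. Cdkn1c was 5.42 in basal LY6D+ cells of mouse 3, against 4.49 to 4.63. Top2a was 4.06 in luminal LY6D+ cells of mouse 4, against 3.59 to 3.66 in the other luminal libraries. Cdk6 was 4.43 in luminal LY6D- cells of mouse 5, against 2.75 to 2.99.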

How the results depend on the processing

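The 21 differences of cell cycle genes with an unadjusted p under 0.05 in the 7 comparisons kept their sign under all alternatives that gave a value. They were picked for a small p in these data, and leaving out a library of a gate not compared cannot change them. A kept sign is therefore weak evidence. Across all alternatives a cell cycle gene passed the threshold 3 times, each time for basal minus luminal with 1 library left out: Ccnd2 without luminal LY6D- of mouse 5 (2.30) or basal LY6D- of mouse 3 (2.22), and Cdk6 without luminal LY6D- of mouse 4 (-1.08). Cdk6 entered the test only through 2 luminal libraries, so its call supports nothing. The number of all genes called moved more, from 84 for basal minus luminal, 28 for Sca1-high minus luminal, 2 for Sca1-high minus basal, 2 for LY6D in basal cells, 7 for any difference among groups, and 0 for the other comparisons. With the mouse as a fixed replicate block 104 genes were called for Sca1-high minus luminal, 80 for Sca1-high minus basal, 0 for LY6D in basal cells and 3 for any difference; as a random replicate block, 1 for LY6D in luminal cells and 11 for any difference. The block changed no call on a cell cycle gene, and the fixed block left the gate differences to mouse 5 alone. Centred arrays gave 31 for basal minus luminal and 17 for Sca1-high minus luminal. A prior variance by intensity gave 2 for LY6D in luminal and 0 in basal cells. The mean of a gene's probe sets gave 1 for Sca1-high minus basal and 0 for LY6D in basal cells. Fitting only the groups compared gave 13 for Sca1-high minus luminal, 1 for Sca1-high minus basal and 0 for LY6D in basal cells. Without the 3 libraries of mouse 5 with low array medians, basal minus luminal, Sca1-high minus luminal, LY6D in basal cells and any difference gave 0 each and LY6D in luminal cells 1, with a median of -0.086 for the cell cycle genes there (0.06 with all libraries). Leaving out each library in turn gave 15 to 255 genes for basal minus luminal, with 0 to 1 cell cycle genes among them, 13 to 165 for Sca1-high minus luminal, 2 to 133 for Sca1-high minus basal, and 1 to 51 for any difference. For LY6D it gave 0 to 70 in luminal, 0 to 17 in Sca1-high and 0 to 3 in basal cells and 0 to 2 over the gates. For the LY6D difference between gates it gave 0 to 11 for basal minus luminal, 0 to 7 for Sca1-high minus luminal and 0 to 14 for Sca1-high minus basal. The median of the cell cycle genes for LY6D in luminal cells ran from -0.13 to 0.22. The highest counts for basal minus luminal, Sca1-high minus luminal, LY6D in luminal cells and any difference were those without luminal LY6D- of mouse 4, and the highest for Sca1-high minus basal was that without basal LY6D- of mouse 3. Where a group was left with 1 library, the other groups supplied the spread, and the lone library was assumed to vary like them. Leaving out the 3 libraries of mouse 5 with low array medians also left the basal gate to mouse 3 alone. The cause of these shifts was not tested.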
